A study of Mus musculus with 12 samples.

Results

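Genes of fatty acid synthesis and desaturation were described in the hearts of diabetic mice and of mice given pargyline, an inhibitor of monoamine oxidase. The set held 10 genes, chosen by name: the stearoyl-CoA desaturases *Scd1*, *Scd2* and *Scd4*, the enzymes *Acly*, *Acaca*, *Acacb*, *Fasn*, *Elovl5* and *Elovl6*, and the transcription factor gene *Srebf1*. They are 10 of the 27225 gene names carried by the array and had 24 of its 56605 probes. Of the 24 probes, 14 had, in each of the 4 groups, a signal called positive and significant by the scanner software on 50% or more of the arrays. These were tested, and each of the 10 genes had at least 1 of them. Of the 10 probes that were not tested, 9 were not well above background on any array. The genes were picked with results for all 4 groups of these mice in view so their values are given as a description and without a test.

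The animals were male C57BL6/J mice, 5 months old, and heart muscle was profiled on 1 array per mouse. Control mice (C), control mice with pargyline (C + P), diabetic mice (D) and diabetic mice with pargyline (D + P) formed 4 groups of 3 mice. Diabetes was induced with streptozotocin, which kills the insulin-producing cells of the pancreas, at 50 mg/kg per day on 5 days, so that D and D + P are a model of insulin loss and not of insulin resistance. The pargyline dose was 50 mg/kg, injected daily over 12 weeks. The 6 arrays without pargyline were on 1 slide and the 6 with pargyline on another, so that pargyline and slide cannot be told apart. The non-diabetic arrays lay in row 1 and the diabetic ones in row 2 of each slide, so that diabetes and row cannot be told apart either. Of the 59305 spots kept on each array, 23556 to 29231 were well above background. The small number of arrays limits the precision of each value.

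Acetyl-CoA leaves the mitochondrion as citrate and is released in the cytosol by ATP citrate lyase, the product of *Acly*. Acetyl-CoA carboxylases carboxylate it to malonyl-CoA. The product of *Acaca* feeds malonyl-CoA to fatty acid synthase, the product of *Fasn*, whereas that of *Acacb* sits at the mitochondrion, where malonyl-CoA inhibits the entry of fatty acids for oxidation. The heart burns much more fatty acid than it makes, and *Acacb* is the main carboxylase of heart and skeletal muscle. Palmitate made by fatty acid synthase is lengthened by ELOVL6, and stearoyl-CoA desaturases put a double bond into stearate and palmitate to give oleate and palmitoleate. *Scd1* is best known from liver and fat, *Scd2* from brain, and *Scd4* as the desaturase of the mouse heart. SREBP-1c, a product of *Srebf1*, is the insulin-driven activator of this pathway.

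The desaturase genes lie together on chromosome 19, and the values below rest on short stretches of their transcripts. In mm9, the probe of *Scd2* lies at chr19:44381024-44381083 and that of *Scd1* at chr19:44469387-44469446. Of *Scd4*, a brighter probe lies at chr19:44421034-44421093 and a dimmer one at chr19:44420742-44420801. Both *Scd4* probes read the same transcript and start 292 bases apart. The files do not say whether a probe lies in coding sequence. A window of 30 of the 60 bases is shown for each of these probes and for that of *Fasn*, since the probes of *Scd4* and *Fasn* carry the differences described below and those of *Scd1* and *Scd2* are compared with them. Capitals mark the longest run that the probe shares with a probe of another gene on this array, searched among runs of 14 or more bases.

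*Scd1*: tatctgacAGTCTCACATCTCAacagtgtg
*Scd2*: acatttggggatcctctgcagaggagtatt
*Scd4*, brighter probe: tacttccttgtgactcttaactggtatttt
*Scd4*, dimmer probe: agaacacaTTGTGCTGTGGGGGCtccagaa
*Fasn*: cttgggttTTGACTTTTCTGCAgctgtcag

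The longest shared run was 15 bases for the dimmer *Scd4* probe and 14 for *Scd1* and *Fasn*. *Scd2* and the brighter *Scd4* probe shared no run of 14 or more bases with a probe of another gene. The G and C content was 45.0% for the dimmer and 41.7% for the brighter *Scd4* probe. The search covers the probes of the array, and it says nothing of transcripts without a probe.

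*Scd4* was higher in diabetic hearts by both of its measured probes, with and without pargyline, but by very different amounts. All signals below are log2 values after quantile normalisation between arrays. The brighter probe read 10.22, 10.09 and 9.74 in the C mice and 10.56, 10.54 and 10.33 in the D mice. It read 9.81, 9.73 and 10.01 in C + P and 10.24, 10.48 and 10.43 in D + P. Every diabetic heart was above every non-diabetic heart of the same pargyline arm. The difference was 0.46 log2 (SE 0.17, n = 3 against 3) between D and C and 0.54 log2 (SE 0.17) between D + P and C + P, or 1.37-fold and 1.45-fold. The SE is that of a limma fit over all tested probes.

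The dimmer *Scd4* probe read 6.03, 5.73 and 4.90 in C and 8.31, 7.74 and 7.61 in D. It read 4.30, 5.89 and 5.47 in C + P and 6.91, 7.90 and 7.57 in D + P. The lowest diabetic value, in D + P replicate 1, was above the highest non-diabetic one, in C replicate 1. The difference was 2.33 log2 (SE 0.44) between D and C and 2.24 log2 (SE 0.44) between D + P and C + P, or 5.04-fold and 4.73-fold. The probe was well above background on 2 of the 3 C arrays, 2 of the 3 C + P arrays and all diabetic arrays, and the brighter probe on all 12. The size of the dimmer probe's difference depended on the background correction. Averaged over both pargyline arms it was 2.29 log2 (SE 0.31) on the scanner software's own background-subtracted signal and 1.19 log2 after normexp correction, which adds an offset of 50 to every spot and so compresses dim probes. The brighter probe's averaged difference was 0.50 log2 (SE 0.12) and lay between 0.41 and 0.55 under the 20 alternatives tried.

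The signal of the dimmer probe minus that of the brighter probe on the same array averaged -4.46 log2 ± 0.33 (SD, n = 3) in the C mice and -2.59 ± 0.30 in the D mice. With pargyline it averaged -4.63 ± 0.84 in C + P and -2.92 ± 0.38 in D + P. The highest non-diabetic gap was -3.84, and the lowest diabetic one was -3.33. The pair of probes thus changed unequally in diabetes, which is a statement about 2 stretches of 1 transcript and not about which of them gives the transcript's level. The gaps are those of the background-subtracted signal. After normexp correction the dimmer probe's averaged difference was 1.19 log2 in place of 2.29 log2, so the gap changed less. The third *Scd4* probe, for another transcript model (chr19:44408983-44409042), was well above background only in D + P replicate 2.

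**Figure D1:**
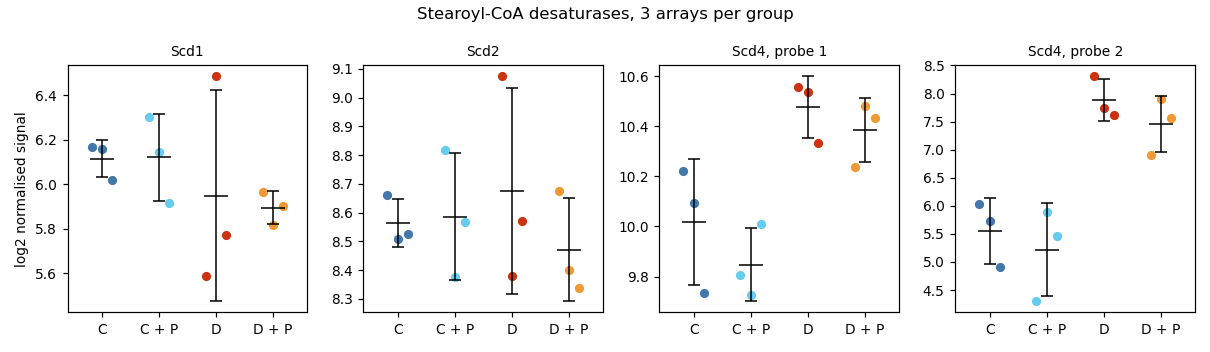
Log2 normalised signal (y axis) of the tested probes of *Scd1*, *Scd2* and *Scd4* in each mouse, by group (x axis), with a separate y axis for each probe. Points are mice, and the black line and bars give the mean and SD of 3; *Scd4* probe 1 is the brighter and probe 2 the dimmer one, and in both the D and D + P points lie above those of C and C + P, respectively.

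*Scd1* and *Scd2* overlapped between diabetic and non-diabetic hearts in both arms. *Scd1* read 6.17, 6.16 and 6.02 in C, 5.59, 6.49 and 5.77 in D, 6.30, 6.14 and 5.91 in C + P, and 5.97, 5.82 and 5.90 in D + P. The groups overlapped, and D replicates 1 and 2 were the lowest and the highest of all 12 arrays. The difference was -0.17 log2 (SE 0.22) between D and C and -0.23 (SE 0.22) between D + P and C + P, and the averaged value of -0.20 turned to 0.04 after normexp correction. *Scd2* read 8.66, 8.51 and 8.53 in C, 9.07, 8.38 and 8.57 in D, 8.82, 8.38 and 8.57 in C + P, and 8.67, 8.40 and 8.34 in D + P. The groups overlapped in both arms, and the averaged difference was 0.00 log2 (SE 0.14). The second probe of *Scd1* (chr19:44471140-44471199) was not well above background on any array. *Scd3*, the fourth gene of the cluster, is no member and was looked up after its values were seen: its tested probe (chr19:44318249-44318308) differed by -0.58 log2 (SE 0.39) between D and C and by 0.52 log2 (SE 0.39) between D + P and C + P, opposite signs that average to -0.03 (SE 0.27).

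*Fasn*, fatty acid synthase, was lower in diabetic hearts in both arms. Its probe (chr11:120668460-120668519) read 10.52, 10.69 and 10.53 in C and 10.18, 10.30 and 10.36 in D. It read 10.66, 10.50 and 10.52 in C + P and 10.44, 10.07 and 10.30 in D + P. The highest diabetic value, 10.44 in D + P replicate 1, was below the lowest non-diabetic one, 10.50 in C + P replicate 2. The difference was -0.30 log2 (SE 0.14) between D and C and -0.29 (SE 0.14) between D + P and C + P, or 0.812-fold and 0.818-fold. The averaged difference of -0.30 (SE 0.10) lay between -0.34 and -0.21 under the 20 alternatives tried.

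Upstream of fatty acid synthase, *Acly* overlapped between the groups in both arms, and the brightest probe of *Acaca* was lower without overlap in D against C. *Acly* (chr11:100337674-100337733) read 10.26, 10.35 and 10.21 in C, 10.33, 10.43 and 10.28 in D, 10.34, 10.27 and 10.18 in C + P, and 10.74, 10.21 and 10.11 in D + P. One array, D + P replicate 1, stood above the other 11, and the groups overlapped in both arms, with an averaged difference of 0.08 log2 (SE 0.12). A second *Acly* probe was not well above background on any array. The brightest probe of *Acaca* (chr11:84215093-84215152) read 8.37, 8.38 and 8.53 in C and 8.29, 8.22 and 8.08 in D, so that every D heart was below every C heart, by 0.23 log2 (SE 0.16) on average. With pargyline it read 8.19, 8.46 and 8.55 in C + P and 8.60, 8.22 and 8.47 in D + P, where the difference was 0.03 log2 (SE 0.16) and the groups overlapped. Its averaged difference of -0.10 turned to 0.09 after normexp correction. A dim second probe of *Acaca* (chr11:84214359-84214418) stood well above background on 8 arrays of 12 and read between 3.43 and 6.53. It differed by -0.03 log2 (SE 0.53) between D and C and by -0.92 log2 (SE 0.53) between D + P and C + P, with overlap in both. Its lowest value was in D + P replicate 3, and its averaged difference of -0.47 log2 (SE 0.38) was -0.14 log2 (SE 0.26) without that array. The other 5 *Acaca* probes were not well above background on any array.

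*Acacb*, the mitochondrial carboxylase, had 3 tested probes, all well above background on all 12 arrays. The brightest (chr5:114700702-114700761) read 12.71, 12.70 and 12.78 in C, 13.05, 12.75 and 12.70 in D, 12.71, 12.92 and 12.84 in C + P, and 13.01, 13.04 and 13.43 in D + P. D overlapped C, with a difference of 0.10 log2 (SE 0.16), whereas every D + P heart was above every C + P heart, by 0.34 log2 (SE 0.16). The second probe (chr5:114667674-114667733) differed by -0.03 log2 (SE 0.22) and 0.23 log2 (SE 0.22) in these 2 contrasts, and the third, which spans a splice junction between 114596822 and 114615564 on chromosome 5, by 0.12 log2 (SE 0.20) and 0.02 log2 (SE 0.20). The separation of D + P from C + P was thus seen with 1 of the 3 probes.

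Of the elongases, *Elovl5* overlapped between the groups in every contrast, and *Elovl6* in all but D + P against D. *Elovl5*, which lengthens polyunsaturated fatty acids (chr9:77832205-77832264), read 9.26, 9.22 and 9.15 in C, 8.59, 9.17 and 9.09 in D, 9.24, 9.33 and 9.32 in C + P, and 8.48, 9.21 and 9.34 in D + P. Its averaged difference of -0.27 log2 (SE 0.16) had its lowest values in D replicate 1 and D + P replicate 1. Both lay, with C + P replicate 1, in column 1 of their slides, and these 3 arrays had the largest spread between repeated spots of a probe (coefficient of variation 15.1% to 23.2%, against 3.89% to 12.8% on the other 9 arrays). Without these 3 arrays the difference was -0.06 log2. The part of the arrays in the difference was not tested further. The other 2 probes of *Elovl5* were not well above background on any array.

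*Elovl6*, which lengthens palmitate to stearate, had the widest range of the members' brightest probes (chr3:129337756-129337815). It read 8.71, 9.36 and 9.70 in C, 9.23, 8.30 and 8.63 in D, 7.36, 9.33 and 10.01 in C + P, and 10.22, 9.71 and 9.49 in D + P. Every D + P heart was above every D heart, by 1.08 log2 (SE 0.57), while the C + P values ran from below all other arrays to above all but 1. The diabetes difference was -0.54 log2 (SE 0.57) without and 0.91 log2 (SE 0.57) with pargyline. The averaged value of 0.19 (SE 0.40) turned to -0.20 without C + P replicate 1 and to -0.43 without the 3 arrays of column 1.

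*Srebf1* (chr11:60013214-60013273) read 10.45, 10.35 and 10.05 in C, 10.52, 10.34 and 10.37 in D, 10.24, 10.19 and 9.91 in C + P, and 10.25, 10.63 and 10.84 in D + P. D overlapped C, with a difference of 0.13 log2 (SE 0.19). D + P lay above C + P by 0.46 log2 (SE 0.19), although the lowest D + P and the highest C + P array read 10.25 and 10.24.

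**Figure D2:**
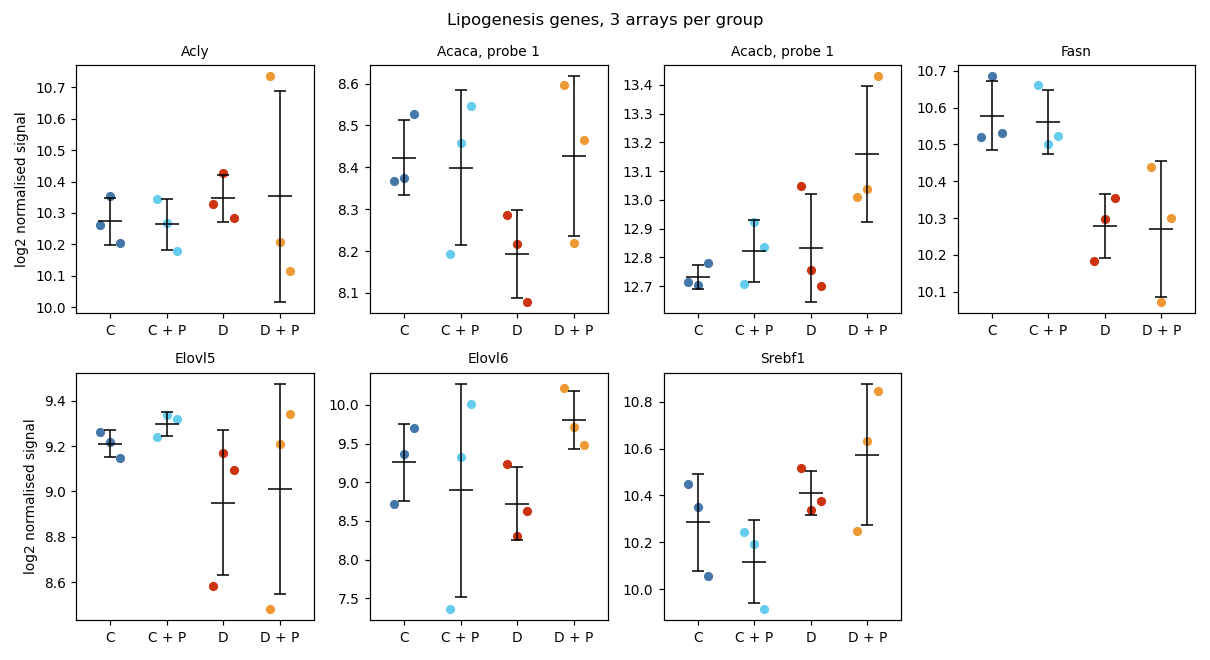
Log2 normalised signal (y axis) of the brightest probe of *Acly*, *Acaca*, *Acacb*, *Fasn*, *Elovl5*, *Elovl6* and *Srebf1* in each mouse, by group (x axis), with a separate y axis for each gene. Points are mice, and the black line and bars give the mean and SD of 3; only *Fasn* separates the diabetic from the non-diabetic mice in both arms.

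Over the 14 tested probes, 4 separated D from C without overlap: both *Scd4* probes were higher, and *Fasn* and the brightest *Acaca* probe were lower. Among all tested probes 11.9% were higher and 10.4% lower in this way. Between D + P and C + P, 4 probes were higher (both of *Scd4*, *Srebf1* and the brightest of *Acacb*) and *Fasn* was lower, against 7.3% and 6.57% of all tested probes. Both *Scd4* probes and *Fasn* separated the groups in both arms, which held for 1.21% of all tested probes upwards and 1.29% downwards. Nothing is read from these counts, since the members were picked with these groups in view.

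For the same reason nothing is read from the limma fit of the members, whose calls are given as counts beside those of all tested probes. At an adjusted p of 0.05, 1 of the 14 probes, the dimmer one of *Scd4*, was called for diabetes averaged over pargyline, against 0.107% of all tested probes. None was called in D against C (0.00648% of all tested probes), in D + P against C + P (0.0454%), in C + P against C (0.0324%), in D + P against D (0%) or in the interaction of diabetes and pargyline (0.00648%). The call of the *Scd4* probe was kept in 2 of the 12 fits that left out 1 array, those without D replicate 3 and without D + P replicate 1. It was lost without any one of the other 10 arrays, with differences of 2.06 to 2.45 log2 in those fits. It was also lost with slide column as a block (2.32 log2), with replicate number as a block (2.29 log2) and with no filter on dim probes (2.29 log2). The call was kept with another scaling, normexp correction, the authors' table, a stricter filter on dim probes and array weights. It was also kept with values not positive and significant set to missing, with slide as a block and without the arrays of slide column 1. The number of probes called over the whole table for diabetes averaged over pargyline, 33 with all arrays, was as low as 3 (without C replicate 3 or D + P replicate 2) and as high as 116 (without D + P replicate 1). By the brightest probe of each gene, 5 of the 10 members were higher and 5 lower in diabetes averaged over pargyline, with a median difference of 0.04 log2 against -0.01 for all tested probes.

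**Figure D3:**
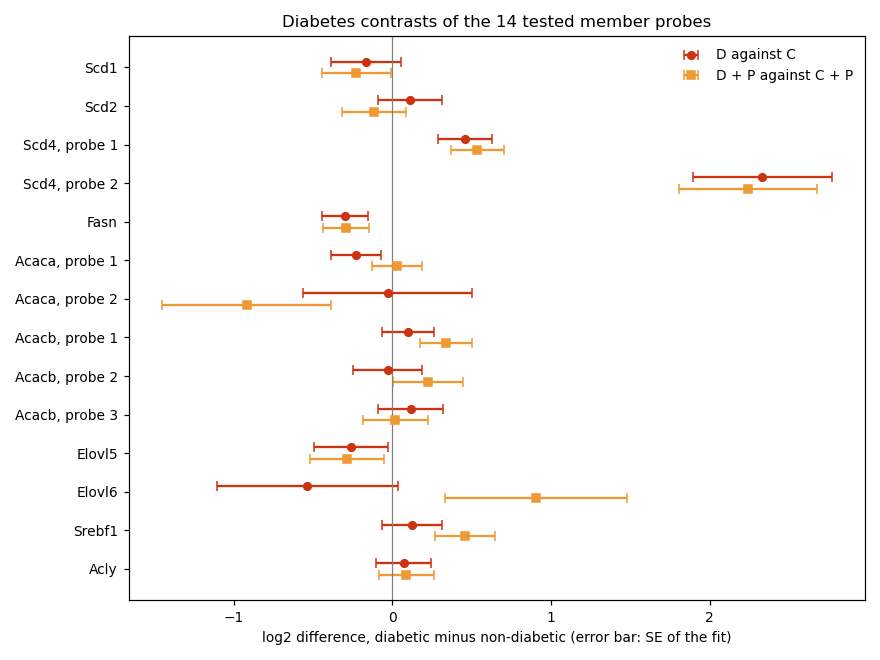
Log2 difference between diabetic and non-diabetic mice (x axis) of each tested member probe (y axis), without pargyline (circles) and with pargyline (squares). Bars are the SE of the limma fit, with 3 mice per group; the dimmer *Scd4* probe (probe 2) stands at 2.33 and 2.24, and no other difference exceeds 0.92 in size.

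Between C + P and C no probe separated the groups (7.35% of all tested probes were higher and 8.01% lower without overlap), and the members' differences by the brightest probe ran from -0.36 log2 in *Elovl6* to 0.09 log2 in *Acacb*. Between D + P and D, *Elovl6* was higher by 1.08 log2 (SE 0.57), and the dim *Acaca* probe differed by -1.07 log2 (SE 0.53), both without overlap, against 7.92% and 9.11% of all tested probes. That *Acaca* probe was well above background on 1 of the 3 D + P arrays and 2 of the 3 D arrays, and without D + P replicate 3 it differed by -0.40 log2 (SE 0.39). *Scd4* was lower in D + P than in D by 0.09 log2 (SE 0.17) by the brighter and 0.43 log2 (SE 0.44) by the dimmer probe, with overlap in both. *Fasn* differed by -0.01 log2 (SE 0.14). The slide differs in the same way as pargyline in these contrasts.

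The other genes of lipid synthesis were taken from 6 lists with 95 genes in all, of which 88 had a tested probe, and each gene is represented by its brightest one. None of the 88 passed the limma test at an adjusted p of 0.05 in any of the 6 contrasts. At an unadjusted p of 0.05 there were 20 for diabetes averaged over pargyline (22.7%, against 11.4% of all tested probes), 8 for D against C (9.09% against 10.8%) and 11 for D + P against C + P (12.5% against 7.46%). There were 5 for C + P against C (5.68% against 4.43%), 4 for D + P against D (4.55% against 13.3%) and 1 for the interaction (1.14% against 7.03%). After normexp correction the 20 became 13 (14.8% against 11.1%), and with each slide fitted alone the 11 for D + P against C + P became 6 (6.82% against 6.46%). The methods' t-test with Benjamini-Hochberg adjustment also called none in the 4 contrasts between single groups, with 16 at an unadjusted p of 0.05 for D against C (18.2%, against 11.4% of all tested probes) and 6 for D + P against C + P (6.82% against 6.55%). Nothing is read from these shares, since the lists were chosen with earlier results of these data known. The 88 are also brightest probes, whereas the shares of all tested probes include dimmer probes of the same genes. The values below are differences in diabetes averaged over pargyline, with limma's adjusted p, and genes of each list with the largest differences are named.

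Among the 14 genes that supply acetyl-CoA and NADPH or assist fatty acid synthesis, 11 were lower and 3 higher, with a median of -0.05 log2. The largest differences were those of *Acss2*, which makes acetyl-CoA from acetate (-0.70 log2, SE 0.27, adjusted p = 0.374), and of *Mid1ip1*, whose product activates acetyl-CoA carboxylase (-0.62 log2, SE 0.15, adjusted p = 0.194). The *Acss2* difference was -0.28 log2 (SE 0.38) without pargyline and -1.12 log2 (SE 0.38) with it, and the SD of its levels was 0.98 log2 in D + P against 0.03 to 0.20 log2 in the other groups. The *Mid1ip1* difference was -0.92 log2 (SE 0.22) without pargyline and -0.31 log2 (SE 0.22) with it. Of 17 other desaturases and elongases, 12 were tested, 6 higher and 6 lower, with a median of -0.01 log2. *Hsd17b12*, which takes part in chain elongation, differed by -0.47 log2 (SE 0.16, adjusted p = 0.312) and *Fads1*, the delta-5 desaturase, by 0.46 log2 (SE 0.12, adjusted p = 0.219). *Fads6*, *Elovl2*, *Elovl3*, *Elovl4* and *Elovl7* had no tested probe.

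Of the 14 regulators of lipogenesis, 8 were higher and 6 lower, with a median of 0.08 log2. *Srebf2*, which drives cholesterol synthesis, differed by 0.54 log2 (SE 0.14, adjusted p = 0.219), and *Ppargc1b*, a coactivator, by 0.36 log2 (SE 0.17, adjusted p = 0.464). Of the 12 genes of malonyl-CoA use and of the AMP-activated kinase, 9 were higher and 3 lower, with a median of 0.10 log2. *Prkag3*, a regulatory subunit of that kinase, differed by -0.70 log2 (SE 0.16, adjusted p = 0.155), and *Cpt1a*, a carnitine palmitoyltransferase inhibited by malonyl-CoA, by 0.60 log2 (SE 0.20, adjusted p = 0.316).

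Of 16 genes of glycerolipid synthesis, 15 were tested, of which 4 were higher and 11 lower, with a median of -0.15 log2. *Lpin3*, a phosphatidate phosphatase, differed by -0.69 log2 (SE 0.22, adjusted p = 0.286), and *Gpam*, the first enzyme of glycerolipid synthesis at the mitochondrion, by 0.36 log2 (SE 0.15, adjusted p = 0.395). Of 22 genes of cholesterol synthesis, 21 were tested, of which 16 were higher and 5 lower, with a median of 0.09 log2. *Sqle*, squalene epoxidase, differed by 0.73 log2 (SE 0.26, adjusted p = 0.341), with 1.23 log2 in the arm without pargyline and 0.24 log2 in the arm with it, and was well above background on 5 of 12 arrays. The median of all tested probes was -0.01 log2.

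**Figure D4:**
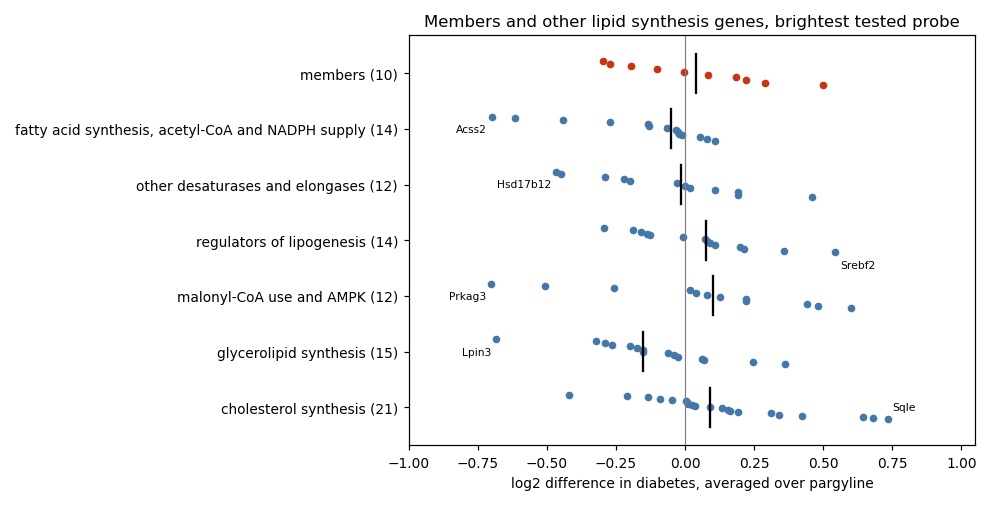
Log2 difference in diabetes averaged over pargyline (x axis) of the 10 members (red) and of the genes of 6 other lipid synthesis lists (blue), each by its brightest tested probe, with the number of genes in brackets. Black lines are medians, which lie between -0.15 and 0.10, and the gene with the largest difference in each list is named; none of the named genes passed the test.

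The genes whose signal ran most like that of a member were found by Pearson's r over the 12 arrays among 30819 tested probes with a value on every array. For the brighter *Scd4* probe these included *Rbm3*, a cold-induced RNA-binding protein gene (r = 0.924), and *Hsd17b11*, which codes for a protein of lipid droplets (r = 0.907). For *Fasn* they were *Adig*, an adipocyte gene (r = 0.953), *Larp4b* (r = 0.940) and *Gsta2*, a glutathione transferase gene (r = 0.935), all lower in diabetes. *Adig* averaged 7.59 in C against 6.71 in D, and 7.49 in C + P against 6.77 in D + P. For *Scd2* they were *Habp4* (r = 0.936), *Trim59* (r = 0.932) and *Gabarap* (r = 0.915), and for *Scd1* *Cep76* (r = 0.912), *Zfp597* (r = 0.876) and *Srprb* (r = 0.865). The 12 points share slides, groups and array quality, and the closest of so many probes has a high r by selection.

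Since fat is rich in *Scd1* and *Fasn*, markers of other cell types were read beside these results. All 8 cardiomyocyte markers were well above background on all 12 arrays. In diabetes averaged over pargyline 5 of them were higher and 3 lower, with a median of 0.08 log2 and a range from -0.99 log2 in *Ryr2* to 0.23 log2 in *Pln*. No marker of any cell type passed the limma test in any contrast. Of the 6 adipocyte markers, *Adipoq*, *Cidec*, *Plin1* and *Retn* were not well above background on any array, *Cfd* was on 5 and *Lep* on all 12. The summed linear signal of the 6 was 207 to 294 in C and 246 to 466 in D, and with pargyline 198 to 310 in C + P and 176 to 275 in D + P, with overlap between all groups. Of the 4 brown fat markers, *Ucp1*, *Elovl3* and *Dio2* were not well above background on any array. *Cidea* was on all 12 and differed by 0.29 log2 (SE 0.10, limma adjusted p = 0.347) in diabetes averaged over pargyline. It made up 98.8% to 99.6% of the summed signal of the 4, which was 4754 to 5060 in C against 5808 to 6943 in D, and 5062 to 5591 in C + P against 5717 to 6963 in D + P. All 7 macrophage markers were lower in both diabetes contrasts and none passed the test, with a median of -0.46 log2 averaged over pargyline. Their summed signal was 17192 to 20029 in C against 13181 to 17156 in D. With pargyline it was 17741 to 28260 in C + P against 13402 to 15051 in D + P. The sum is weighted to *Lyz2*, which averaged 13.66 log2 in C against 11.68 log2 or less for the other macrophage markers. All 7 endothelial markers were higher in D + P than in D, with a summed signal of 15938 to 20270 against 13330 to 14974. *Kdr* differed by 0.75 log2 and *Tie1* by 0.59 log2, and the others by 0.08 to 0.14 log2. In this contrast pargyline and slide cannot be told apart, and 7.92% of all tested probes were higher without overlap. The sum of 6 epicardial markers, of which 2 were tested, was 488 to 686 in D against 353 to 406 in C and overlapped between D + P and C + P. The 5 tested Schwann cell markers were all higher in diabetes averaged over pargyline, with a median of 0.57 log2. The sum of all 6 was 473 to 698 in D + P against 239 to 456 in C + P and overlapped between D and C. The fibroblast sum was 47825 to 55722 in D + P against 42279 to 44750 in C + P and also overlapped between D and C. The cardiomyocyte sum was 799124 to 852723 in D against 762303 to 787574 in C and overlapped between D + P and C + P. The sums of atrial and of red cell markers overlapped in both diabetes contrasts. The part of any of these cells in the members' values was not tested. In whole tissue, fewer cells of a type and less RNA per cell cannot be told apart.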

How the data were processed

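The authors labelled RNA of 12 mouse hearts with Cy3, hybridised it to Agilent 8 x 60 K arrays and read the spots in Feature Extraction, version 12.0.0.7 per the file headers. The deposited scanner files give background-subtracted spot intensity on a linear scale, not normalised between arrays. A deposited table of intensity that the authors quantile normalised was used as an alternative.

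Here the intensity was log2 transformed, with outlier spots set to missing, and quantile normalised over non-control spots, and repeated spots were averaged. Tested were the 30859 of 56605 probes whose signal was flagged positive and significant on 50% or more of the arrays in each group. The group means were fitted with limma 3.58.1 in R 4.3.3, with Benjamini-Hochberg adjustment over all tested probes, and 6 contrasts were read. The fit was tested on simulated data. Members were found by the gene name in the files. Other genes were named through RefSeq (GRCm38.p6), used for names only, and coordinates are those of the files (mm9).

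The members and lists were chosen with earlier results of these data known. The text names every member by every probe, any list gene that passed, the 2 genes of each list with the largest change, and the 3 genes most like *Scd1*, *Scd2*, *Scd4* and *Fasn*. Some genes that meet this rule are not reported here. Alternatives were another scaling, background correction, the authors' table, filters on dim probes, array weights, blocks for slide, slide column and replicate number, the methods' t-test, and leaving out each array.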

Additional observations from a re-analysis of the deposited data

Results flagged for a closer look

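The third *Scd4* probe, which reads another transcript model (chr19:44408983-44409042) and was too dim to be tested, gave a log2 signal of 6.14 in D + P replicate 2 and was well above background there. Its highest value on the 6 non-diabetic arrays was 3.81, and the other 2 D + P arrays read 3.19 and 3.31. The D arrays read 3.45, 4.54 and 3.21, none of them well above background. The probe was thus well above background in 1 mouse, with no replicate. No member, and none of the genes named from the other lists, had a called interaction or moved in opposite directions without overlap in both arms.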

How the results depend on the processing

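The members' median difference in diabetes averaged over pargyline, 0.04 log2, moved by less than the spread between replicates (0.19 log2) under all 21 alternatives. That spread is the middle value of those of single genes and is wide beside 0.04 log2, so no stability is read from this. The median difference changed sign under some alternatives. It ran from -0.05 to 0.09 when 1 array was left out and was -0.07 without the 3 arrays of slide column 1, an alternative chosen after seeing the data. Of the 280 values of single member probes under the alternatives, 278 moved by less than the spread between replicates. The exceptions, both under normexp correction, were the dimmer *Scd4* probe (1.19 log2) and the brightest *Acaca* probe (0.09 log2). No stability is read from this count. Leaving out 1 array can move a value only a little, and some alternatives change the test and not the difference. Changes of sign, as in *Elovl6*, were counted as within the spread. The count of 0 lipid synthesis genes past the threshold held under 138 of 143 alternatives over the 6 contrasts. In the main fit 0 to 33 of the 30859 tested probes were called per contrast, so a count of 0 among 88 genes was likely beforehand. With array weights, which count noisy arrays less, the count was 9 for D against C, 1 for D + P against C + P, 13 for diabetes averaged over pargyline and 5 for C + P against C, or 10.2%, 1.14%, 14.8% and 5.68% of the 88 against 9.51%, 1.28%, 7.31% and 7.32% of all tested probes. Of the 14 member probes, array weights called 2, 1 and 3 in the first 3 of these contrasts, from which nothing is read. The weights were uneven, so that some groups rested mostly on 1 mouse. In C + P, replicate 2 had a weight of 9.47 against 0.30 and 0.77, and in D, replicate 2 had 3.66 against 0.20 and 0.46. Leaving out 1 array gave a count of 0 to 1 lipid synthesis genes, the 1 being *Lpin3* without D + P replicate 1 (-0.88 log2, limma adjusted p = 0.0447). With the replicate number as a block, no lipid synthesis gene passed in any contrast (count 0), and the calls over all probes fell from 33 to 4 for diabetes averaged over pargyline. Same-numbered arrays deviated together with r between -0.20 and 0.20. These values show no common pairing, but with 3 arrays per group they cannot show that the mice were unmatched. Signal over background limits the dimmer probes of *Scd4* and *Acaca*, which were well above it on 10 and 8 of 12 arrays. Among the brightest probes, *Elovl6* had the widest range over the alternatives, -0.43 to 0.46 log2.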
